A study of Mus musculus with 16 samples.

Results

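Heat shock chaperones are proteins that keep other proteins folded, and 10 of their genes were followed here in the esophagus of mice. The genes were taken by name from the deposited table: Hspa1a, Hspa1b, Hspa8, Hspa5, Dnajb1, Dnaja1, Hsph1, Hspb1, Hsp90aa1 and Hspe1. They are 10 of 41411 genes in that table, each had 1 entry, and all 10 passed the filter on low values. The choice of these genes used no measured value of this series, although earlier results of the same libraries were known when they were chosen.

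RNA of whole esophagus from C57BL/6 mice was read by CEL-Seq, a method that counts tags near the 3' end of each transcript. The 16 libraries formed 4 groups of 4: Il13ra1-/- mice (KO) given OXA, KO mice given vehicle, wild type (WT) mice given OXA, and WT mice given vehicle. OXA is oxazolone, a skin-sensitizing chemical used to bring about experimental eosinophilic esophagitis, an allergic inflammation of the gullet. Il13ra1 encodes the receptor chain that binds IL-13 and signals together with Il4ra. Age, sex, dose, time of sampling, the composition of the vehicle and how the separate samples arose are not stated in the sources used, so p-values measure only the spread between these libraries.

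Cytosolic HSP70 proteins grip unfolded stretches of other proteins and let go of them in a cycle driven by ATP. J-domain proteins such as Dnajb1 bring the clients and start the cycle, HSP110 proteins such as Hsph1 exchange the nucleotide, and HSP90 takes over clients such as kinases and receptors. When unfolded protein gathers, heat shock factor 1 (Hsf1) is released, binds heat shock elements made of inverted GAA units and switches on the inducible genes, whereas the endoplasmic reticulum (ER) has its own sensors and its own HSP70, Hspa5. In squamous epithelium such as the lining of the esophagus, the small heat shock protein Hspb1 is abundant in the differentiating layers.

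The promoters of the inducible HSP70 pair are shown first because both genes are nearly the same and yet had different values in these libraries. Hspa1a (17, 34969190 to 34972156) and Hspa1b (17, 34956436 to 34959238) lie 9951 bases apart on the minus strand of GRCm38, and their 250 bases before the start differ at 3 positions (98.8% identical). The sequences are RefSeq promoters of GRCm38.p6, from chr17:34972157-34972406 and chr17:34959239-34959488, minus strand, with the inverted pair of heat shock units in capitals. The small heat shock protein gene Hspb1, from chr5:135887669-135887918 on the plus strand, is given with them because it had the highest values of the 10 genes in 3' tags, which are not scaled by length.
Hspa1a: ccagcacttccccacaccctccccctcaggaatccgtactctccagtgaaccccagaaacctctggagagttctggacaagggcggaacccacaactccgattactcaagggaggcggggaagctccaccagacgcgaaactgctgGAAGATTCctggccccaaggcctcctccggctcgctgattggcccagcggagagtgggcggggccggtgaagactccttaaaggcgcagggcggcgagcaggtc
Hspa1b: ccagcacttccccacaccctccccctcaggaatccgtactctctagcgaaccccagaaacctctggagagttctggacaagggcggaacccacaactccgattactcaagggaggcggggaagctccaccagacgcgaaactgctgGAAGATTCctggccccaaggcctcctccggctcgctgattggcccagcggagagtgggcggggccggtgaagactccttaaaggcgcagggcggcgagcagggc
Hspb1: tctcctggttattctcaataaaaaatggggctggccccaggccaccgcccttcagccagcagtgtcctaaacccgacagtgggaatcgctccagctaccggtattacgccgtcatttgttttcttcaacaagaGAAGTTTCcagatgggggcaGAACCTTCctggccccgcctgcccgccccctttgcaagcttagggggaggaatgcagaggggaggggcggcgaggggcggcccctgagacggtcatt
Counted back from the base before the start as -1, with the Hspa1a base first, the differences within the pair were C-207T, T-204C and T-2G. None of them falls in the capitals, which run from -104 to -97 in both genes. Hspb1 has a unit pair from -117 to -110 and another from -97 to -90.

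Short elements of the chaperones of mitochondria and of the ER are shown because they hold longer exact matches to stress elements than the HSP70 pair. The first is chr1:55088054-55088081, the second chr2:34772020-34772048, both on the plus strand of GRCm38.p6, with the element in capitals and 5 bases on each side.
Hspe1: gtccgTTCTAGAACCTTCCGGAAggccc
Hspa5: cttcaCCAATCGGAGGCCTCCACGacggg
The Hspe1 element is a run of alternating heat shock units from -89 to -72. The Hspa5 element, from -65 to -47, is an ER stress element, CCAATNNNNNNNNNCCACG. Promoters of 8 of the 10 genes were matched in RefSeq, 12 promoters in all, and each motif was searched on both strands over 250 bases before and 50 after the start. A pair of units, GAANNTTC or TTCNNGAA, stood in 15.1% of 32851 mouse promoters and in those of 6 of the 8 genes (Hspa1a, Hspa1b, Hspb1, Dnaja1, Hsph1 and Hspe1). The run of 3 units, GAANNTTCNNGAA or the same alternation begun with TTC, which contains the pair, stood in 0.603% of promoters and in those of Hspe1 and Hsph1. The ER stress element stood in 0.119% of promoters and, among the 8 genes, in that of Hspa5. These are exact matches of letters, so units with a mismatch, in the HSP70 pair or elsewhere, were not counted. They are no measurement of binding.

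The libraries differed in depth by group. Recovered reads per library were 8823796 to 15202957 in KO OXA, 7913040 to 16528455 in KO vehicle, 20174102 to 27342877 in WT OXA and 5611227 to 9551179 in WT vehicle libraries. The deposited Il13ra1 value was 44.0 to 174 in KO OXA and 31.2 to 64.7 in KO vehicle libraries, against 584 to 874 in WT OXA and 134 to 226 in WT vehicle libraries. KO libraries lay below WT libraries within each treatment, and where the deletion lies relative to the 3' tag is not stated in the sources used. Of 8 epithelial markers 7 were detected and Sox2 was at 0 in every library. Their summed value was 1242042 to 2719750.0 in KO OXA, 1340308 to 1649787 in KO vehicle, 437306 to 722383 in WT OXA and 1267829 to 1870696 in WT vehicle libraries. Krt4 and Krt13, keratins of the differentiating layers, made up most of that sum, which was lowest in the WT OXA libraries. The list did not move one way: with OXA in WT 3 of 7 tested markers fell and 1 rose. Krt14, a keratin of basal cells, averaged 3590.4 ± 1410 in KO OXA, 2226 ± 195 in KO vehicle, 12461 ± 2388 in WT OXA and 3025.5 ± 529 in WT vehicle libraries (SD, n = 4 each). Krt5 averaged 16918 ± 3490.5 in WT OXA and 20139 ± 6275 in WT vehicle libraries, and Trp63 2456 ± 445 in WT OXA and 2136 ± 702 in WT vehicle libraries. Skeletal muscle markers (12 genes, with Myh7 at 0 in KO OXA and WT vehicle libraries) summed to 143881 to 226832 in KO OXA, 206567 to 270686 in KO vehicle, 93663 to 168844 in WT OXA and 161186 to 316672 in WT vehicle libraries. The sum over 10 leukocyte markers, with Itgam at 0 in every library, was 4234 to 8770.0 in KO OXA and 1935 to 3416 in KO vehicle libraries, and 4569 to 5491 in WT OXA and 3109 to 3902 in WT vehicle libraries. Endothelial markers (4 genes) summed to 197 to 489.6 in KO OXA, 412 to 612 in KO vehicle, 913 to 1632 in WT OXA and 552 to 651 in WT vehicle libraries. All 4 rose with OXA in WT, and all 4 were lower in the interaction and in KO against WT under OXA. Of 4 genes listed as airway club cell markers, Cyp2f2 made up almost the whole sum, at 17136 to 32806 in KO OXA, 25431 to 33988 in KO vehicle, 589 to 1032 in WT OXA and 35726 to 54185 in WT vehicle libraries. Scgb1a1, the defining marker of those cells, averaged 35.5 ± 8.32 in KO OXA, 57.8 ± 13.5 in KO vehicle, 10.9 ± 9.31 in WT OXA and 92.0 ± 55.5 in WT vehicle libraries, and Scgb3a1 and Scgb3a2 were too low to be tested. Mitochondrial rRNA took 0.776% ± 0.273 of the reads in KO OXA, 1.14% ± 0.431 in KO vehicle, 0.453% ± 0.00627 in WT OXA and 1.34% ± 0.270 in WT vehicle libraries (SD, n = 4 each). The part of these shifts in the results for the chaperones was not tested, and in bulk tissue fewer cells of a type and less RNA per cell cannot be told apart.

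The 10 genes did not respond to OXA as a block. In WT mice Hspa1a, Dnajb1, Hspb1 and Hspe1 fell and Hsp90aa1 rose with OXA. In KO mice none of the 10 passed the test, and the effect of OXA was higher in KO than in WT mice for Hspa1a, Hspa1b, Dnajb1, Hspb1 and Hspe1. The interactions of Hspa1b and Hspb1 and the WT fall of Hspe1 kept their direction but were not called under either other scaling, equal library totals or quantile normalization. With reads thinned to 5611227 reads per library, edgeR called the same 5 genes with OXA in WT. Values are deposited normalised counts, reads divided by 1 size factor per library. Differences are log2 fold changes ± SE, in log2(value + 1), tested with limma at a Benjamini-Hochberg adjusted p of 0.05 over 16748 genes.

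**Figure D1:**
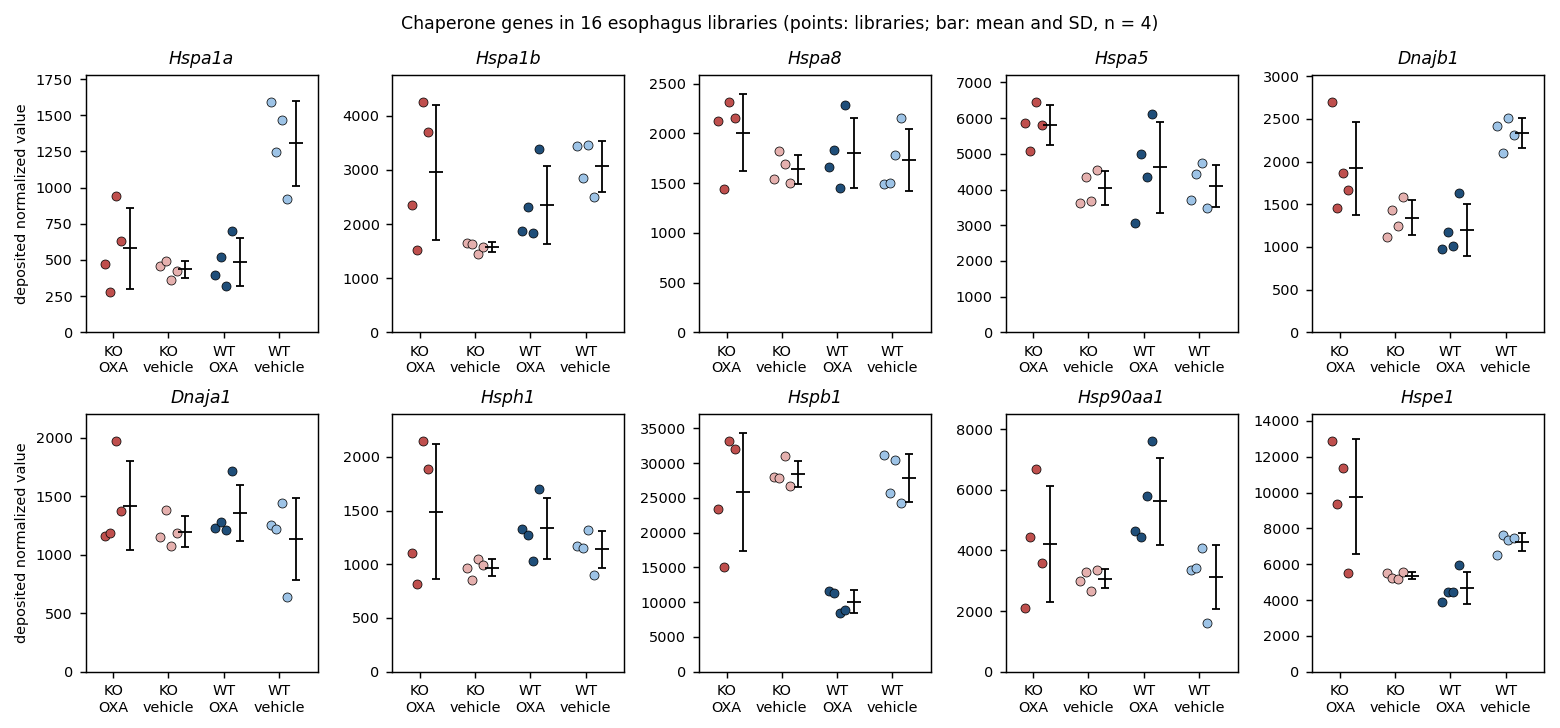
Deposited normalised counts of the 10 chaperone genes in each library (linear axes from 0), by group from left to right KO OXA, KO vehicle, WT OXA and WT vehicle. Points are libraries, and the black marks are the group mean ± SD (n = 4). The 4 WT OXA libraries of Hspb1 sit between 8459 and 11548, below all other libraries.

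Against the background of all genes, the counts read as follows. OXA against vehicle in WT called 1 of the 10 higher and 4 lower, where 18.0% of all tested genes were higher and 16% lower. The same contrast in KO called 0 of the 10, where 1.81% of genes were higher and 0.0896% lower. Before adjustment 5 of the 10 had a p under 0.05 in KO, and after adjustment edgeR called 1 and DESeq2 called 2. The interaction, which is the KO effect of OXA minus the WT effect, called 5 of the 10 higher and none lower, where 10.1% of genes were higher and 7.67% lower. KO against WT called 1 of the 10 lower under vehicle, where 0.0358% of genes were higher and 0.0239% lower. Under OXA it called 3 of the 10 higher and none lower, where 14.6% of genes were higher and 12.9% lower. The median log2 change of the 10 genes was 0.41 with OXA in KO, beside -0.01 over all genes, and -0.18 with OXA in WT, beside 0.10 over all genes. For the interaction it was 0.80, beside -0.10 over all genes.

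The groups were also compared by whether their ranges overlapped. With OXA against vehicle, the ranges did not overlap for 1 of the 10 in KO (Hspa5), where 6.87% of all genes did not overlap. In WT they did not overlap for 5 of the 10, where the share of all genes was 34.2%. KO against WT gave 4 of the 10 under vehicle (Hspa1a, Hspa1b, Dnajb1 and Hspe1), beside 5.35% of all genes. Under OXA KO against WT gave 1 of the 10 (Hspb1), beside 29.3% of all genes.

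**Figure D2:**
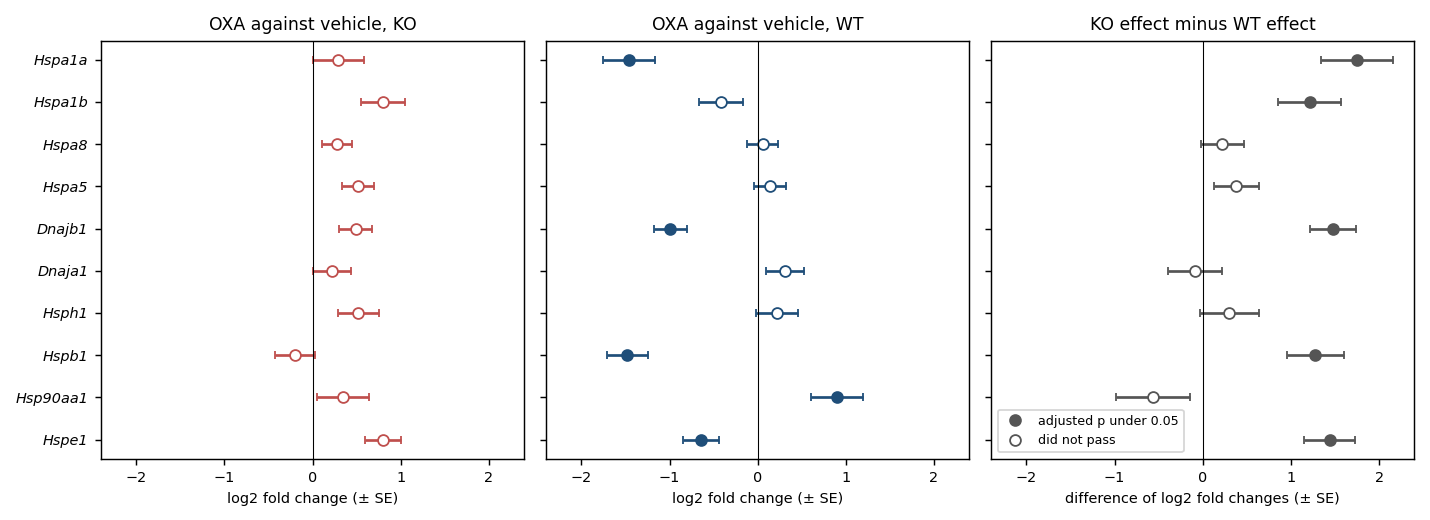
Log2 fold change of each chaperone gene (± SE) for OXA against vehicle in KO, for OXA against vehicle in WT and for their difference, KO minus WT. Filled points passed limma's test at an adjusted p of 0.05. In KO 9 of the 10 points lie above 0, and in WT 5 lie above and 5 below.

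Hspa1a, the stress-inducible cytosolic HSP70, was lower with OXA in WT mice and already low in KO mice under vehicle. It stood at 469, 277, 943 and 633 in KO OXA libraries and at 461, 494, 359.9 and 423 in KO vehicle libraries. WT OXA libraries held 397, 520.4, 322 and 702, and WT vehicle libraries held 1590.3, 1247, 1469 and 923. All 4 WT vehicle libraries lay above every KO vehicle and every WT OXA library, whereas KO OXA and KO vehicle libraries overlapped. With OXA Hspa1a fell in WT (-1.46 ± 0.29, adjusted p = 0.000699), by 2.75-fold. The KO difference was 0.29 ± 0.29 (adjusted p = 0.705), and the interaction was 1.75 ± 0.41 (adjusted p = 0.00608). Under OXA KO against WT was 0.18 ± 0.29 (adjusted p = 0.689). Hspa1a was the 1 chaperone gene that passed between genotypes under vehicle, lower in KO by 2.96-fold (-1.57 ± 0.29, adjusted p = 0.0497, the 10th smallest p of all genes). That call lay at the threshold. It ended without any 1 of 11 libraries (WT vehicle 1, 2 or 3, WT OXA 1 or 2, any KO vehicle library, KO OXA 1 or 4), with adjusted p from 0.0570 to 0.198, while over all 16 ways of leaving out 1 library the log2 difference lay between -1.72 and -1.46.

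Hspa1b encodes an almost identical protein, and its 3' tags, not scaled by length, outnumbered those of Hspa1a in every library. KO OXA libraries held 2356, 1519, 4253 and 3701, and KO vehicle libraries held 1658, 1634, 1441 and 1576. In WT mice the values were 1870.1, 2323, 1842 and 3382 with OXA and 3448, 2856, 3468 and 2494 with vehicle. KO vehicle libraries lay close together and below all WT vehicle libraries, while KO OXA libraries ranged from 1 below 3 of the KO vehicle libraries to the highest Hspa1b value of the series. The Hspa1b interaction was 1.21 ± 0.35 (adjusted p = 0.0228), and it was no longer called without WT OXA 3 (adjusted p = 0.0541) or KO OXA 3 (adjusted p = 0.0531). With equal library totals it came to 0.77 (adjusted p = 0.108) and with quantile normalization to 0.90 (adjusted p = 0.0798), and without the trended prior its adjusted p was 0.0580. OXA against vehicle gave 0.80 ± 0.25 in KO (adjusted p = 0.128) and -0.41 ± 0.25 in WT (adjusted p = 0.217). The KO difference passed in DESeq2 (adjusted p = 0.0145) and in limma without KO OXA 2 (adjusted p = 0.0127). Under vehicle, KO against WT was -0.95 ± 0.25 (adjusted p = 0.289), past the threshold in a fit of the vehicle groups alone (adjusted p = 0.0397). Under OXA KO against WT was 0.26 ± 0.25 (adjusted p = 0.476).

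The pair is told apart by its 3' ends. In GENCODE M21 transcripts the coding sequences are 99.43% identical, whereas the stretches after the stop codon, 810 bases in Hspa1a and 643 in Hspa1b, are 48.1% identical and share none of 786 words of 25 bases. CEL-Seq tags come from that end, though the length and position of the tags are not stated in the sources used. A gene named Gm20481 overlaps Hspa1a on the other strand, outside the last bases of Hspa1a, and whether counting used the strand was not given either. Summed, both genes had a log2 interaction of 1.36 ± 0.36 (adjusted p = 0.0143), with 0.70 ± 0.26 for OXA in KO (adjusted p = 0.212) and -0.65 ± 0.26 for OXA in WT (adjusted p = 0.0567).

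The share of Hspa1a in that sum lay lower in OXA than in vehicle libraries of both genotypes. It was 16.2% ± 1.54 in KO OXA libraries (14.6% to 18.2%) and 21.5% ± 1.35 in KO vehicle libraries (19.98% to 23.2%; SD, n = 4). In WT it was 17.0% ± 1.47 with OXA (14.9% to 18.3%) and 29.7% ± 1.93 with vehicle (27.0% to 31.6%). Every OXA library of either genotype had a lower share than every vehicle library, and KO vehicle libraries lay below WT vehicle libraries. This measure was picked after the values had been seen, so it is given as a description with no test.

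**Figure D3:**
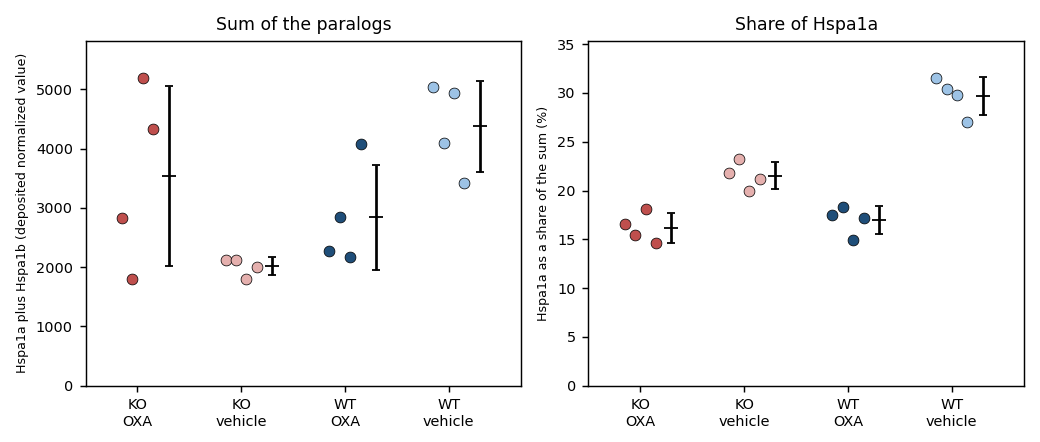
Sum of Hspa1a and Hspa1b (deposited normalised counts) and the percent of that sum that is Hspa1a, per library, by group from left to right KO OXA, KO vehicle, WT OXA and WT vehicle, with the mean ± SD (n = 4) in black. The Hspa1a share lies at 14.6% to 18.3% in the 8 OXA libraries, below the 19.98% to 31.6% of the 8 vehicle libraries.

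Hspa8, the constitutive HSP70 of the cytosol, was not called in any of the 5 comparisons. Its values ranged from 1440 to 2315 in KO OXA, 1505 to 1823 in KO vehicle, 1455 to 2282 in WT OXA and 1497 to 2159 in WT vehicle libraries. All 4 ranges overlapped. The log2 difference with OXA was 0.27 ± 0.17 in KO (adjusted p = 0.506) and 0.06 ± 0.17 in WT (adjusted p = 0.833), and the interaction was 0.22 ± 0.24 (adjusted p = 0.581).

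Dnajb1, the J-domain partner that loads clients on HSP70, had the smallest interaction p of the 10 genes. Its values were 2695, 1461, 1863 and 1662 in KO OXA and 1112, 1437, 1243 and 1587 in KO vehicle libraries. WT libraries held 971, 1173, 1017 and 1630.3 with OXA and 2415, 2099, 2512 and 2309 with vehicle. WT vehicle libraries lay above all WT OXA libraries and above all KO vehicle libraries, and KO OXA 1 was the highest Dnajb1 library of the series. With OXA Dnajb1 fell 1.99-fold in WT (-0.99 ± 0.19, adjusted p = 0.000465). The KO difference had the opposite sign (0.49 ± 0.19, adjusted p = 0.233), and the interaction was 1.48 ± 0.27 (adjusted p = 0.000834). Between genotypes Dnajb1 was higher in KO OXA than in WT OXA libraries (0.67 ± 0.19, adjusted p = 0.0109), which with equal library totals came to 0.26 (adjusted p = 0.197). Under vehicle the difference of KO from WT was -0.80 ± 0.19 (adjusted p = 0.239), past the threshold in DESeq2 (adjusted p = 0.0371).

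Dnaja1, another J-domain co-chaperone of cytosolic HSP70, was not called in any comparison. It ranged from 1157 to 1969 in KO OXA, 1079 to 1381 in KO vehicle, 1216 to 1713 in WT OXA and 635 to 1441 in WT vehicle libraries. Hsph1, the HSP110 exchange factor, ranged from 817 to 2144 in KO OXA, 858 to 1050 in KO vehicle, 1027 to 1704 in WT OXA and 903 to 1321 in WT vehicle libraries. Neither gene kept a group apart from the rest. The Hsph1 difference with OXA was 0.52 ± 0.24 in KO (adjusted p = 0.322) and 0.22 ± 0.24 in WT (adjusted p = 0.510). For Dnaja1 it was 0.22 ± 0.22 in KO (adjusted p = 0.706) and 0.31 ± 0.22 in WT (adjusted p = 0.296), which passed with equal library totals (0.63, adjusted p = 0.0266). The 3' end of Dnaja1 overlaps Smu1 on the other strand, so reads of both cannot be told apart if strand was not used.

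Hsp90aa1, the inducible cytosolic HSP90, was the 1 chaperone gene of the 10 that rose with OXA in WT. KO OXA libraries held 2103, 4436, 6698 and 3589.5, and KO vehicle libraries held 2993, 3273, 2647 and 3363. In WT mice there were 4657, 4456, 5799 and 7595 with OXA and 3344, 3412, 4077 and 1607 with vehicle. Each WT OXA library lay above each WT vehicle library, and the KO OXA libraries reached below and above all KO vehicle libraries. The rise in WT was 1.87-fold (0.90 ± 0.30, adjusted p = 0.0235). It rested on single libraries: the adjusted p was 0.0993 without WT vehicle 4 (0.61), 0.0542 without WT OXA 3 and 0.0820 without WT OXA 4, and it was 0.0516 with no filter and 0.0551 without the trended prior. The KO difference was 0.34 ± 0.30 (adjusted p = 0.651) and the interaction was -0.56 ± 0.42 (adjusted p = 0.382), so no difference between the genotypes in the OXA effect was shown. Under OXA KO against WT was -0.51 ± 0.30 (adjusted p = 0.221), and lower past the threshold under equal library totals (adjusted p = 0.0238) and after quantile normalization (adjusted p = 0.0236).

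Hspa5, the HSP70 of the ER also known as BiP, was the 1 gene of the 10 whose KO OXA and KO vehicle libraries did not overlap. Of all genes 6.87% did not overlap in that comparison. Hspa5 stood at 5867, 5082, 6449 and 5807 in KO OXA libraries, and the KO vehicle libraries held 3610.3, 4359.8, 3690.3 and 4559.6. WT libraries held 3064, 4983, 4354 and 6106 with OXA and 3715, 4450.5, 4756 and 3497 with vehicle, and these overlapped. The difference with OXA was 0.52 ± 0.18 in KO (adjusted p = 0.183) and 0.14 ± 0.18 in WT (adjusted p = 0.589), and neither passed. The interaction did not pass either (0.38 ± 0.26, adjusted p = 0.333). It came to -0.07 with equal library totals and to -0.13 with quantile normalization. With equal library totals the WT difference was 0.46 (adjusted p = 0.0364). Under OXA KO against WT was 0.36 ± 0.18 (adjusted p = 0.147), and it passed only without WT OXA 4, among the libraries left out in turn (adjusted p = 0.0442).

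Hspe1, the co-chaperonin that caps the mitochondrial HSP60 chamber, had estimates of opposite sign in the genotypes. KO OXA libraries held 12855, 9366, 11386 and 5484, and KO vehicle libraries held 5489, 5224, 5191 and 5572. In WT the values were 3897, 4437, 4456 and 5967 with OXA and 6506, 7652, 7372 and 7452 with vehicle. WT OXA libraries lay below all WT vehicle libraries, whereas 3 of the 4 KO OXA libraries lay far above KO vehicle libraries and KO OXA 4 lay among them. With OXA Hspe1 fell 1.56-fold in WT (-0.64 ± 0.21, adjusted p = 0.0211). The fall was not called without WT OXA 1 (adjusted p = 0.0668) or WT OXA 3 (adjusted p = 0.0513), and it was -0.32 with equal library totals (adjusted p = 0.128) and -0.30 with quantile normalization (adjusted p = 0.129). The KO difference missed the threshold narrowly in limma (0.79 ± 0.21, adjusted p = 0.0517) and passed in edgeR (adjusted p = 0.0247), in DESeq2 (adjusted p = 0.00111), and in limma without KO OXA 4 (1.05, adjusted p = 0.000589) or WT OXA 4 (adjusted p = 0.0496). The interaction was 1.44 ± 0.29 (adjusted p = 0.00223), or 0.81 with quantile normalization (adjusted p = 0.0115). Under OXA Hspe1 was 2.01-fold higher in KO than in WT (1.01 ± 0.21, adjusted p = 0.00105), or 0.60 with equal library totals and 0.52 after quantile normalization on the log2 scale.

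Its partner Hspd1, which forms the HSP60 chamber itself, is read from the same start region on the other strand, and both genes overlap by 112 bases. It was named for that position, outside the rule for naming genes. Hspd1 averaged 1265 ± 251 in KO OXA and 1264 ± 73.5 in KO vehicle libraries, and 1572 ± 361 in WT OXA and 1254 ± 100.4 in WT vehicle libraries (SD, n = 4 each). The difference with OXA was -0.02 ± 0.16 in KO (adjusted p = 0.969) and 0.30 ± 0.16 in WT (adjusted p = 0.156), and the interaction was -0.32 ± 0.23 (adjusted p = 0.352). Thus Hspd1 passed no test, and its estimates had signs opposite to those of Hspe1 in both genotypes. A difference between the genes of the pair was not tested.

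Hspb1, the small heat shock protein that holds unfolding proteins in solution, had the highest values of the 10 genes and fell in WT. KO OXA libraries held 23334, 15001, 33099.6 and 31949.7, and KO vehicle libraries held 27958, 27805, 31058 and 26684. WT libraries held 11548, 11372, 8459 and 8809 with OXA and 31116, 25638, 30430.1 and 24265 with vehicle. Every WT OXA library lay below every library of the other groups, and KO OXA 2 was the lowest of the rest. Hspb1 fell 2.79-fold with OXA in WT (-1.48 ± 0.23, adjusted p = 6.66e-05), and with quantile normalization the log2 difference was -0.87 (adjusted p = 0.00974). In KO it differed by -0.20 ± 0.23 (adjusted p = 0.751), and the interaction was 1.28 ± 0.32 (adjusted p = 0.0101). The interaction missed the threshold under equal library totals (0.83, adjusted p = 0.0527) and with quantile normalization (0.44, adjusted p = 0.417). Under OXA Hspb1 was 2.48-fold higher in KO than in WT (1.31 ± 0.23, adjusted p = 0.000259), or 0.64 with quantile normalization (adjusted p = 0.0575). The summed epithelial markers, mostly Krt4 and Krt13, were also lowest in the 4 WT OXA libraries, but of 7 tested markers 3 fell and 1 (Krt14) rose with OXA in WT. Their part in the Hspb1 difference was not tested.

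Library by library, deviations from the group means were positively correlated for most pairs of the 10 genes. Pairs of all genes were not computed, so whether these genes differ from others in this is not known. Over the 16 libraries, which share 4 group means and 1 size factor each, the Pearson correlation of these deviations (log2 scale) was positive for 41 of the 45 pairs of genes. Its median was 0.471 and it ran from -0.329 for Hspb1 and Hspe1 to 0.963 for Hspa1a and Hspa1b. Hspa1b and Hsph1 stood at 0.921, Dnaja1 and Hsp90aa1 at 0.862, and Hspa1b and Hspe1 at 0.002. With the other genes Hspe1 stood highest with Dnajb1 (0.586) and at 0.107 with Hspa1a. The KO OXA group held the libraries that stood furthest apart. KO OXA 3 was above its group by a mean of 0.449 over the 10 genes, and KO OXA 2 lay below it by 0.427. In KO OXA 1 Hsp90aa1 was low (-0.880) while Dnajb1 was high (0.528).

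**Figure D4:**
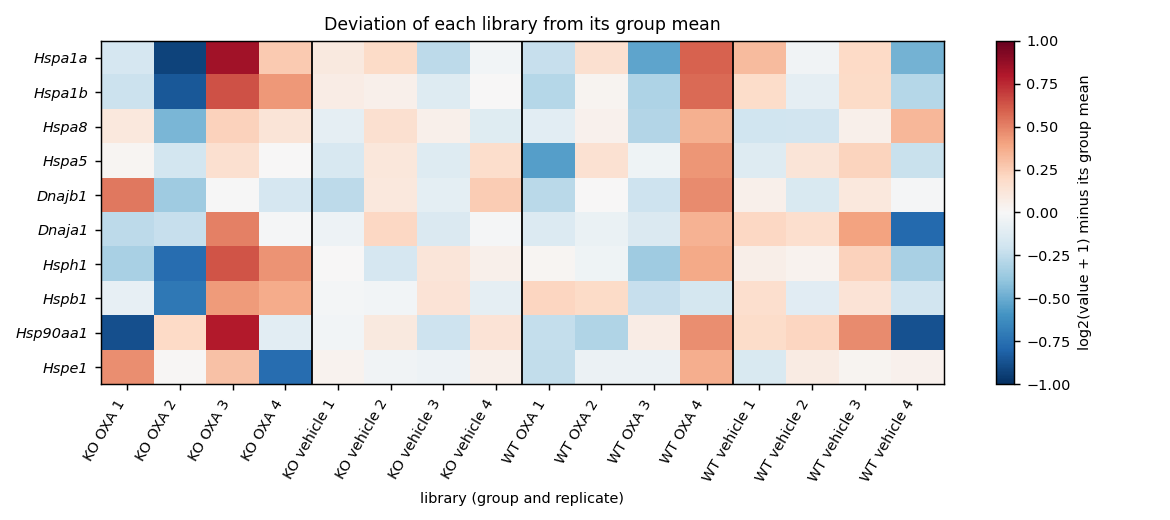
Deviation of each library from its group mean (log2 scale) for the 10 chaperone genes, with groups from left to right KO OXA, KO vehicle, WT OXA and WT vehicle. KO OXA 3 is mostly above and KO OXA 2 mostly below 0, and the KO vehicle libraries deviate least.

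The wider chaperone network and other stress genes were read from 10 lists, 131 genes tested in all, some in more than 1 list. Genes shared with another list were Hsp90b1, Hyou1, Dnajb9, Dnajb11, Dnajc3 and Sil1 (ER list) and Hspd1, Hspa9, Trap1, Dnaja3 and Grpel1 (mitochondrial list). Of the 131, 22 were immediate early genes and 12 oxidative stress genes, which are not chaperones. With OXA in WT 2 of the former rose and 5 fell, and 2 of the latter rose and 7 fell. Of these 131 genes 5 rose and 1 fell with OXA in KO (31 at an unadjusted p under 0.05), and 36 rose and 28 fell with OXA in WT. The interaction called 19 higher and 11 lower. Between genotypes 27 were higher and 28 lower in KO under OXA, and none passed under vehicle (8 at an unadjusted p under 0.05, 0 in edgeR and 0 in DESeq2). In percent, 27.5% rose and 21.4% fell in WT, beside 18.0% and 16% of all genes. In KO 3.82% rose and 0.763% fell, beside 1.81% and 0.0896% of all genes. The interaction was higher for 14.5% and lower for 8.4%, beside 10.1% and 7.67% of all genes. Under OXA 20.6% were higher and 21.4% lower in KO than in WT, beside 14.6% and 12.9% of all genes.

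Many genes of the ER list rose with OXA in WT, while Hspa5 itself was not called with the deposited scaling. Of 27 ER chaperones and unfolded protein response genes 3 rose with OXA in KO (median log2 difference 0.32) and 17 rose in WT (median 0.67), and none fell in either. In percent, 11.1% rose in KO, beside 1.81% of all genes, and 63.0% in WT, beside 18.0%. The WT count was 23 under equal library totals and 18 after quantile normalization. Hspa5 in WT was called higher under equal library totals (0.46, adjusted p = 0.0364) but not after quantile normalization (0.42, adjusted p = 0.0727). Hsp90b1, the ER form of HSP90, averaged 3569 ± 528 in WT OXA and 1269 ± 261 in WT vehicle libraries (1.51 ± 0.19, adjusted p = 7.28e-06). Its interaction was -1.05 ± 0.27 (adjusted p = 0.0111), opposite in sign to that of the inducible HSP70 genes. The disulfide isomerase Pdia4 rose with OXA in KO (0.84 ± 0.21, adjusted p = 0.0475, lost in 18 of 30 alternatives) and in WT (1.70 ± 0.21, adjusted p = 7.24e-06). Pdia3, another isomerase, rose in WT (0.97 ± 0.13, adjusted p = 1.16e-05). Eif2ak3, the ER stress sensor PERK, rose in WT (1.39 ± 0.18, adjusted p = 1.11e-05), with an interaction of -1.32 ± 0.26 (adjusted p = 0.00169). In all, 5 of the 27 genes had a lower interaction and none a higher one, where 7.67% of all genes were lower and 10.1% higher. With equal library totals 20 of the 27 were lower. That scaling also moved the interaction median of all genes by -0.42, so the larger count cannot be ascribed to this list alone. Under OXA KO libraries were lower than WT libraries for 15 of the 27 and higher for 1, where 12.9% of all genes were lower and 14.6% higher.

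Among other HSP70, HSP90 and HSP110 family genes the calls with OXA were all in the upward direction. Of 13 tested 1 rose with OXA in KO and 5 rose in WT, and none fell. The WT count includes Hsp90b1 and Hyou1, counted in the ER list too, and Hspa9, counted in the mitochondrial list too. The WT share was 38.5% higher, beside 18.0% of all genes. Hspa13, an HSP70 of microsomes, rose in KO (0.86 ± 0.19, adjusted p = 0.0147) and in WT (0.88 ± 0.19, adjusted p = 0.00115). Its KO call ended without KO OXA 2 or KO vehicle 3, with equal library totals and in a fit of the KO groups alone, with adjusted p up to 0.0663. In WT, Hyou1, the HSP110 of the ER, rose by 0.81 ± 0.21 (adjusted p = 0.00563) and Hspa14, an HSP70 found at ribosomes, rose by 0.63 ± 0.16 (adjusted p = 0.00570).

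Among 16 other J-domain co-chaperones 1 fell with OXA in KO, and 9 rose and 4 fell in WT. The WT shares were 56.25% higher and 25% lower, beside 18.0% and 16% of all genes. Those that rose in WT included the ER proteins Dnajb9 (1.34 ± 0.19, adjusted p = 2.50e-05), Dnajb11 (0.96 ± 0.16, adjusted p = 0.00013) and Sec63 (0.82 ± 0.16, adjusted p = 0.000482). Cytosolic Dnaja4 fell there (-1.06 ± 0.20, adjusted p = 0.000488). Dnajb9 and Dnajb11 are counted in the ER list too.

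Of 7 other genes listed as small heat shock proteins 2 fell with OXA in WT and none rose, a median of -0.68. Hspb11 was listed by its symbol, and its place in this family was not checked. The share that fell was 28.6%, beside 16% of all genes. Hspb8, which works with Bag3 in selective autophagy, averaged 2744 ± 454 in WT OXA and 5717 ± 1488 in WT vehicle libraries (-1.04 ± 0.20, adjusted p = 0.000671). Cryab, the alpha B-crystallin of muscle and lens, averaged 3524 ± 1544 in WT OXA and 7195 ± 2022 in WT vehicle libraries (-1.10 ± 0.30, adjusted p = 0.00853), a call lost under equal library totals and under quantile normalization (adjusted p up to 0.0766). Hspb3 and Hspb6 did not pass (-0.89 ± 0.35, adjusted p = 0.0535, and -0.68 ± 0.30, adjusted p = 0.0843). With OXA in WT, 4 of 11 tested skeletal muscle markers fell and 1 rose, and 4 of 7 smooth muscle markers fell and none rose. Their part in the result was not tested.

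The subunits of the cytosolic chaperonin assemble into rings that fold actin and tubulin. Of 9 tested chaperonin genes 1 rose and 2 fell with OXA in WT (3 rose and 1 fell with equal library totals), a share of 11.1% higher and 22.2% lower that is near the 18.0% and 16% of all genes. Cct4 averaged 2435 ± 361 in WT OXA and 5882 ± 917 in WT vehicle libraries (-1.27 ± 0.18, adjusted p = 2.04e-05), with an interaction of 1.59 ± 0.25 (adjusted p = 0.000251). Cct5 fell by 0.60 on the log2 scale (adjusted p = 0.0190), which was lost without WT vehicle 4 or WT OXA 1 and with equal library totals (adjusted p up to 0.170). Cct8 rose (0.83 ± 0.15, adjusted p = 0.000282), and Tcp1 did not pass (-0.36 ± 0.15, adjusted p = 0.0679).

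The transcription factor Hsf1 itself fell with OXA in WT (-1.06 ± 0.22, adjusted p = 0.00092), to 170.0 ± 7.06 in WT OXA, against 363 ± 91.6 in WT vehicle libraries. Its KO difference was -0.23 ± 0.22 (adjusted p = 0.689) and its interaction 0.83 ± 0.31 (adjusted p = 0.0666). Hsbp1, a small protein that binds the trimer of Hsf1, fell in WT (-0.90 ± 0.19, adjusted p = 0.00119) and had an interaction of 1.39 ± 0.27 (adjusted p = 0.00155). Hsf2 and Hsf4 did not pass in WT (0.26 ± 0.24, adjusted p = 0.431, and -0.17 ± 0.51, adjusted p = 0.822).

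Among 22 co-factors of HSP70 and HSP90, 3 rose and 6 fell with OXA in WT (5 rose and 3 fell with equal library totals). With the deposited scaling 13.6% rose and 27.3% fell, beside 18.0% and 16% of all genes. Cdc37, which brings kinases to HSP90, fell (-1.51 ± 0.17, adjusted p = 1.48e-06; interaction 1.39 ± 0.23, adjusted p = 0.000482). Bag2, an exchange factor of HSP70, fell as well (-1.15 ± 0.22, adjusted p = 0.000454). Grpel1, the exchange factor of mitochondrial HSP70, fell in WT (-1.07 ± 0.22, adjusted p = 0.000971) and had an interaction of 1.31 ± 0.31 (adjusted p = 0.00674). Ahsa1, which speeds the ATPase of HSP90, rose (0.88 ± 0.21, adjusted p = 0.00291), in the direction of Hsp90aa1.

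Of 10 mitochondrial chaperones and proteases 3 rose and 1 fell with OXA in WT (6 rose and 1 fell with equal library totals), among them the protease Htra2 (0.84 ± 0.25, adjusted p = 0.0126). The deposited scaling gave 30% higher and 10% lower, beside 18.0% and 16% of all genes. The calls of Hspa9, the mitochondrial HSP70 (0.41 ± 0.14, adjusted p = 0.0296), and of Clpx, which unfolds proteins for a protease (0.54 ± 0.20, adjusted p = 0.0480), ended without single libraries. For Hspa9 these were WT vehicle 1 or 2 and WT OXA 2, 3 or 4 (and a fit of the WT groups alone), with adjusted p up to 0.101, and the Clpx call was lost in 17 of 30 alternatives.

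Tissue handling can switch on immediate early genes along with inducible HSP70, so 22 of these were read beside the chaperones. With OXA in WT 2 rose and 5 fell (3 rose and 2 fell with equal library totals). The deposited scaling gave 9.09% higher and 22.7% lower, beside 18.0% and 16% of all genes. Jun averaged 15596 ± 5115 in KO OXA, 18677 ± 4049.8 in KO vehicle, 6222 ± 1047 in WT OXA and 20284 ± 4566 in WT vehicle libraries, a fall in WT (-1.69 ± 0.23, adjusted p = 2.11e-05). Dusp1 (-0.96 ± 0.19, adjusted p = 0.00056) and Gadd45b (-0.99 ± 0.25, adjusted p = 0.00487, or 0.0518 with equal library totals) fell there too, while Zfp36 rose (1.15 ± 0.14, adjusted p = 6.77e-06). Under vehicle, where Hspa1a was lower in KO, none of the 22 genes passed between the genotypes. Their median KO against WT difference was -0.21, beside 0.02 over all genes. The medians of the other lists ran from -0.18 (oxidative stress genes) to 0.10 (other HSP70, HSP90 and HSP110 family genes). The part of handling in the chaperone values was not tested.

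Oxidative stress genes had a median log2 difference of -0.76 with OXA in WT, or -0.44 with equal library totals. With OXA 1 of 12 rose in KO, and 2 rose and 7 fell in WT. The WT shares were 16.7% higher and 58.3% lower, beside 18.0% and 16% of all genes. Nqo1, a quinone reductase, averaged 496 ± 178 in KO OXA, 395 ± 92.1 in KO vehicle, 82.5 ± 19.5 in WT OXA and 504 ± 121 in WT vehicle libraries, with an interaction of 2.88 ± 0.35 (adjusted p = 1.52e-05). Catalase (Cat) fell in WT (-2.18 ± 0.19, adjusted p = 5.73e-08), as did Gclm, a subunit of the enzyme that makes glutathione's precursor (-1.10 ± 0.16, adjusted p = 2.71e-05). Thioredoxin (Txn1) rose (1.56 ± 0.19, adjusted p = 5.96e-06). The interaction called 8 of the 12 higher and 1 lower (5 higher and 1 lower with equal library totals), beside 10.1% and 7.67% of all genes.

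**Figure D5:**
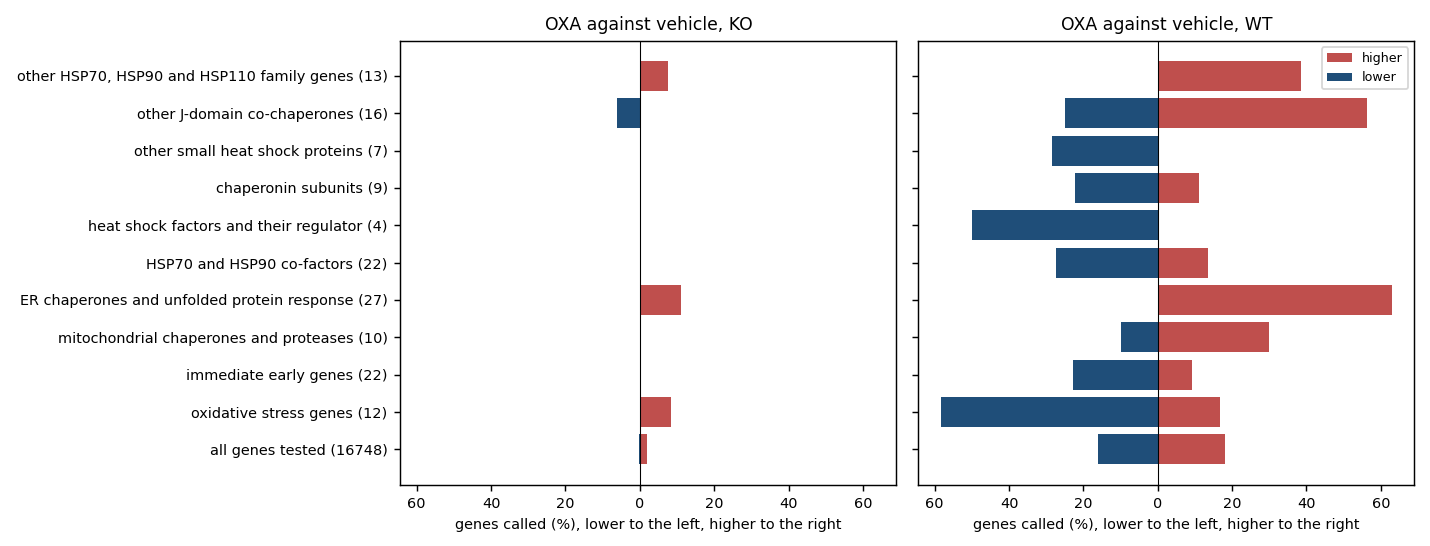
Percent of the tested genes of each chaperone or stress list that were called lower (to the left) or higher (to the right) with OXA against vehicle, in KO and in WT, with all tested genes as the last bar. The ER list reaches 17 of 27 genes higher in WT, and the oxidative stress list 7 of 12 lower.

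By likeness over the 16 libraries, the genes nearest to the sum of Hspa1a and Hspa1b among 10768 candidates were Lipo3 (r = 0.710), Kat6a (0.691), Cdca7l (0.674), Sart3 (0.643) and Denr (0.636). Those nearest to Hspa5 were Clca2 (r = 0.818), Paqr3 (0.808), Rab1a (0.807), Insl6 (0.801) and Abraxas1 (0.790). These are Pearson correlations of log2(value + 1) over libraries that share group means and size factors, given as a description.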

How the data were processed

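RNA of mouse esophagus was measured in 16 CEL-Seq libraries (NextSeq550), 4 groups of 4, per the labels' protocols. Per the submitters' processing notes, the tools were FastQC 0.11.5, Trim Galore, cutadapt 1.10, TopHat2 2.1.0, Bowtie2 2.2.6, HTSeq 0.6.1 and DESeq2 1.28.0 on GRCm38. Whether molecular identifiers and strand were used is not stated in the sources used. The deposited table holds a signal: the authors had divided gene counts by 1 size factor per library. Multiplying back gave whole reads for 100% of the values (tolerance 0.1 of a read) and so the depths. Counting precision is set by depth, and the lowest value of a member rests on 233 reads.

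The members and gene lists were chosen with earlier results of these data known. All 10 members were named, and up to 4 genes of each list, those with the smallest p for OXA in WT. The main test was limma 3.58.1 (R 4.3.3, two-sided) on log2(value + 1), with 4 group means over 16 libraries and a trended eBayes. Genes were tested if 4 libraries or more held a value of 5 or more (16748 genes), p-values were adjusted over them by Benjamini-Hochberg, and 0.05 was the threshold. All adjusted p-values come from it unless another tool is named. The log2(value + 1) scale understates changes of low genes.

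The alternatives changed 1 choice at a time: the pseudocount (0.5 or 5), the filter (any gene above 0, 27009 genes, or a value of 20, 13871 genes), the scaling (equal library totals or quantile normalization), the libraries fitted (the compared groups alone), the prior (untrended or robust), array weights, edgeR 4.0.16 and DESeq2 1.42.0 on recovered reads, edgeR on reads thinned to 5611227 reads per library, the HSP70 pair summed, and each library left out. Running them on the lists was decided after seeing the data. The fit was tried on simulated data with changes put into WT OXA libraries alone and read for OXA in WT. It therefore says nothing on the other comparisons. No protein sequences were used here, so no protein identity is given.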

Additional observations from a re-analysis of the deposited data

Results flagged for a closer look

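In 5 genes the effect of OXA differed between KO and WT by limma's test of the difference itself (log2 scale, KO effect minus WT effect). The difference was 1.75 for Hspa1a, 1.21 for Hspa1b, 1.48 for Dnajb1, 1.28 for Hspb1 and 1.44 for Hspe1. In Hspa1a, Hspa1b, Dnajb1 and Hspe1 the estimate was above 0 in KO and below 0 in WT, and in Hspb1 it was below 0 in both.

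One library stood far from the others of its group. Dnaja1 was 1713 in WT OXA 4, against 1216 to 1283 in the other 3 WT OXA libraries, a gap of 0.864 of the group's range. Of 40 groups of 4 libraries examined this was the 1 that passed, and chance alone gives about 1 in 20 groups. WT OXA 4 was above its group by a mean of 0.382 (log2) over the 10 genes.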

How the results depend on the processing

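No paired analysis was possible because the meaning of the numbers in the titles' codes is not given and the groups share no stated replicate number. No result changed sign while called. Of single-gene results under alternatives 1429 kept their side of the threshold, 34 lost it and 17 gained it.

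The count of members with OXA in WT was 3 to 5 when 1 library was left out. With equal library totals Hspa5 and Dnaja1 were also called higher in WT, and Hspe1 was no longer called lower. Quantile normalization lost the WT call of Hspe1 too. With OXA in KO (0 members) it was 1 with the filter of 20, equal library totals, array weights, edgeR or thinned reads (Hspe1 each time), 2 with DESeq2 and 0 to 1 without 1 library. The interaction (5 members) gave 3 with equal library totals and 3 after quantile normalization, losing Hspa1b and Hspb1, and 4 to 5 without 1 library. KO against WT under vehicle (1 member) gave 0 with a pseudocount of 0.5, no filter, equal library totals, no trend, edgeR or the HSP70 pair summed, 2 with only the groups compared or DESeq2, and 0 to 1 without 1 library. Under OXA (3 members) it was 3 to 4 without 1 library. The members called there changed with the scaling. Equal library totals lost Dnajb1 and called Hsp90aa1 lower in KO, and quantile normalization lost Hspb1 and called Hsp90aa1 lower.

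Over all genes, OXA in KO (318 calls) gave 199 with only the groups compared, 721 with DESeq2 and 182 to 1032 without 1 library. KO against WT under vehicle (10 calls) gave 5 with no filter, 5 with equal library totals, 3 with no trend, 43 with DESeq2 and 3 to 12 without 1 library. Leaving out 1 library gave 4472 to 6138 calls with OXA in WT (5692), 2222 to 3477 for the interaction (2982) and 3618 to 5102 between genotypes under OXA (4617). The causes were not tested.

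Equal library totals moved the median of all genes by 0.31 with OXA in WT, -0.12 with OXA in KO, -0.42 in the interaction and -0.39 between genotypes under OXA. The share of calls that were higher was then 77.3% with OXA in WT (53.0% with the deposited scaling), 20.3% in the interaction (56.9%) and 19.9% between genotypes under OXA (53.1%). Quantile normalization moved the WT median by -0.12. Depth was highest in WT OXA and lowest in WT vehicle libraries, and the interaction could not be fitted with only the groups compared.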
